A study of Mus musculus with 16 samples.

Results

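Trimethylation of histone H3 at lysine 4 (H3K4me3) and at lysine 27 (H3K27me3) was compared gene by gene in quiescent muscle stem cells (QSC), also called satellite cells, from skeletal muscle of C57BL/6 mice. The samples were chosen by their titles: 2 immunoprecipitated replicates of each mark and an input sample for each, 8 of the 16 samples of the series. The other 8 have the same layout in activated cells (ASC) of the same strain. The sources used here give no age, genotype beyond the strain, method of isolation or animal of origin for a replicate. The authors deposited peak lists that both replicates of a group share, so no value below has a replicate error and no test between replicates could be made. The files hold no read depth. Peak coordinates are in mm10.

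H3K4me3 is laid down at promoters by the SET1 and MLL (Trithorax) methyltransferases, largely where unmethylated CpG dinucleotides are dense, and accompanies active or poised transcription. H3K27me3 is laid down by Polycomb repressive complex 2, through its catalytic subunits Ezh1 and Ezh2, and accompanies silencing, above all of developmental regulators that belong to other lineages. A promoter that carries both is called bivalent, a state first described in embryonic stem cells. Satellite cells lie quiescent beside the muscle fibre, are defined by the transcription factor Pax7, and re-enter the cell cycle after injury to repair muscle.

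Of 21887 protein-coding genes, 10541 carried H3K4me3 alone in QSC (48.2%), 4071 carried H3K27me3 alone (18.6%), 1114 carried both at the same place (5.09%), 261 carried the marks at different places (1.19%) and 5900 carried neither (26.96%). An H3K4me3 call needed a narrow peak within 1 kb of a transcription start, and an H3K27me3 call needed 500 bp or more of that same window of 2001 bp to lie in broad peaks. Starts came from RefSeq for 17492 genes, and the other 4395 were read at both ends of the gene record. A mark at the 3′ end of such a record therefore also counted. Of the 261 genes with marks at different places, 136 were read in this way. In all, 54.4% of genes had an H3K4me3 call and 24.9% an H3K27me3 call. Genes with both marks were 9.35% of those with H3K4me3 and 20.5% of those with H3K27me3. Among genes without H3K4me3, 40.8% had an H3K27me3 call, against 11.5% of genes with it. A gene with both marks in these lists need not have both in the same cell, and a weaker mark in every cell cannot be told apart from a mark in fewer cells.

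The lists differ in strength. The 14354 narrow H3K4me3 peaks covered 24.4 Mb with a median fold over background of 10.4, a ratio computed by the authors for each peak. The 130668 broad H3K27me3 peaks covered 455 Mb with a median fold of 1.90, and 3.85% of them had a q of at most 0.05. Of the 1114 genes with both marks, 558 (50.1%) also had a peak of the more stringent narrow H3K27me3 list in the window, and 571 (51.3%) were called from broad peaks with a q of at most 0.05 alone. The number with both marks ranged from 220, with H3K27me3 peaks of fold 3 or more, to 3624, with a window of 2500 bp either side. The division of genes below therefore depends on how a weak, wide mark is called, and the lists of genes are described by counts with no test.

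The promoters of 5 genes show the kinds of sequence at which each pattern was found. The lines give the 250 bases before the start on the strand of the gene, from RefSeq (GRCm38.p6), with each CpG dinucleotide (the letters CG, the same on both strands) in capitals. Calcr, the calcitonin receptor that holds satellite cells in quiescence, had H3K4me3 alone and 24 CpGs (chr6:3763624-3763873, minus strand). Twist1, a mesodermal transcription factor, had both marks and 18 CpGs (chr12:33957421-33957670, plus strand). Olig2, which specifies motor neurons and oligodendrocytes, had H3K27me3 alone and 22 CpGs (chr16:91225300-91225549, plus strand). Cd8a, a T-cell coreceptor, had H3K27me3 alone and 0 CpGs (chr6:71373177-71373426, plus strand). Myh4, the fast IIb myosin heavy chain of mature fibres, had neither mark and 1 CpG (chr11:67237562-67237811, plus strand).
Calcr: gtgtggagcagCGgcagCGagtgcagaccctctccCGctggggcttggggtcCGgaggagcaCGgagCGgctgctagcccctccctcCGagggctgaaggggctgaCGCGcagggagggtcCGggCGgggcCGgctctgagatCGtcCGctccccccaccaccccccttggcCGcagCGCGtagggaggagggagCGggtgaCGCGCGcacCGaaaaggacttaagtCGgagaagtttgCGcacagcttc
Twist1: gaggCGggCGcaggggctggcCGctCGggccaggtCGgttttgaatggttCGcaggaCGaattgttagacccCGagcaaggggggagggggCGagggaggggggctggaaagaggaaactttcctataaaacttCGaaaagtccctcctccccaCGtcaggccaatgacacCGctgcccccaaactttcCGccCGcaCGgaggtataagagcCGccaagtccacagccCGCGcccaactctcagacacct
Olig2: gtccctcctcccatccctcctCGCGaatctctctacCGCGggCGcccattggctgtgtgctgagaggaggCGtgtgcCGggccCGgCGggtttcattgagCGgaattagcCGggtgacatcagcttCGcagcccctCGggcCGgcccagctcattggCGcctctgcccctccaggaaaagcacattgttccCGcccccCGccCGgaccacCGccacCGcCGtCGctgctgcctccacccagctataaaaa
Cd8a: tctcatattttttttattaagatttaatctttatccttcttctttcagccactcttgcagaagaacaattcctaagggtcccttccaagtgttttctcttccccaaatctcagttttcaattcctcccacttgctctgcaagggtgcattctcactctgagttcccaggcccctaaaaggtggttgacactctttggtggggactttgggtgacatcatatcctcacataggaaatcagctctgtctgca
Myh4: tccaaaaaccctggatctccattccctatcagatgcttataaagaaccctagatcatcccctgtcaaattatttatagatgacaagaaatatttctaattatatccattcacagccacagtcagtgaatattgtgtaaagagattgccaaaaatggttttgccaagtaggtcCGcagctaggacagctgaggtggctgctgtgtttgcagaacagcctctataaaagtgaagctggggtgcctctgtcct

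CpG content differed between the classes, with overlap. The ratio of observed to expected CpG, taken over 250 bases before to 50 after each of the annotated starts, had a median of 0.798 at starts with H3K4me3 alone, 0.727 with both marks, 0.306 with H3K27me3 alone and 0.181 with neither. The quartiles overlapped between H3K4me3 alone (0.640 and 0.932) and both marks (0.546 and 0.870). They also overlapped between H3K27me3 alone (0.164 and 0.531) and neither (0.0901 and 0.309). A ratio of at least 0.6 was found at 79.4%, 69.4%, 19.8% and 5.95% of these starts. Below a ratio of 0.2, 70.7% of starts had neither mark and 4.02% had H3K4me3 alone. Above 1.0, 90.2% had H3K4me3 alone and 1.92% had neither. The share with both marks was highest between 0.6 and 0.8, at 7.56%, and was 0.319% below 0.2.

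**Figure D1:**
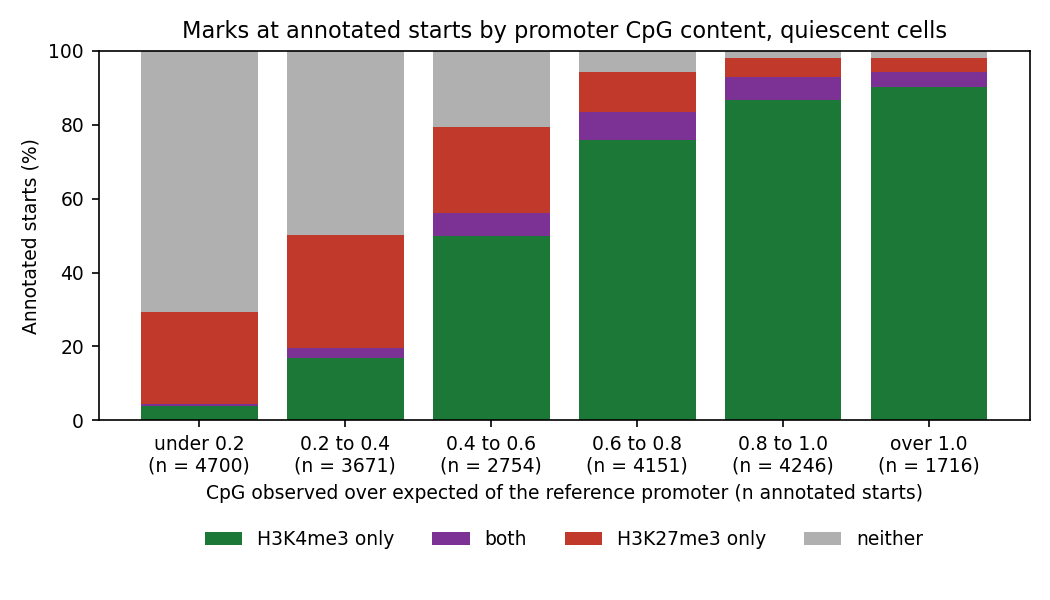
Each bar is a bin of annotated starts by the observed over expected CpG ratio of the reference promoter (x axis, number of starts in brackets) and its colours divide the starts by mark (y axis, percent). Green, H3K4me3 alone, grows from 4.02% to 90.2% from left to right, grey, neither mark, falls from 70.7% to 1.92%, and purple, both marks, is widest at 7.56% in the bin from 0.6 to 0.8.

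H3K27me3 alone was found at 1175 of 4700 starts (25%) below a CpG ratio of 0.2 and at 30.5% from 0.2 to 0.4. The share then fell, to 64 of 1716 (3.73%) above 1.0. Among starts with H3K27me3 alone, the mark was stronger at the CpG-rich ones. At the 726 with a ratio of at least 0.6, Olig2 among them, the broad peak had a median fold of 2.70 and 69.6% of starts also had a narrow H3K27me3 peak. At the 2937 below 0.6, such as Cd8a, the median fold was 2.17 and 30.9% had a narrow peak. Starts with both marks differed less in this way, with narrow peaks at 54.2% of the 644 CpG-rich and 41.5% of the 284 CpG-poor starts.

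Where H3K27me3 was present, H3K4me3 was weak and short. The H3K4me3 peak had a median fold of 6.29 (quartiles 4.88 and 8.47) at starts or ends with both marks, and of 12.3 (quartiles 9.19 and 15.9) where it was alone. The H3K4me3 domain, formed by joining peaks up to 1 kb apart, had a median length of 1314 bp against 1883 bp. When all positions with H3K4me3 were put in 10 equal groups by fold, H3K27me3 was called at 40.5% of the lowest group (folds from 2.36 to 6.05) and at 0.717% of the highest (from 18.9 to 37.3). The decline was present in each CpG class. Between the lowest and the highest of 4 equal groups by fold, it went from 26.8% to 0.640% at CpG-rich starts and from 22.1% to 1.60% at CpG-poor starts. The direction of the difference in H3K27me3 fold depended on CpG content: the median at CpG-rich starts was 2.52 with both marks and 2.70 alone, and at CpG-poor starts 2.41 and 2.17.

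The same relation was seen without any call at genes, by measuring H3K27me3 around the summit of every H3K4me3 peak. With the peaks put in 4 equal groups by fold, in the lowest group broad H3K27me3 peaks covered 20.3% of bases within 500 bp of the summit and 29.3% at 9500 to 10000 bp. In the highest group the coverage was 0.153% near the summit and 16.7% far from it. Overlap with H3K27me3 by at least 1 bp fell from 25.3% of peaks in the lowest group to 1.73% in the highest.

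**Figure D2:**
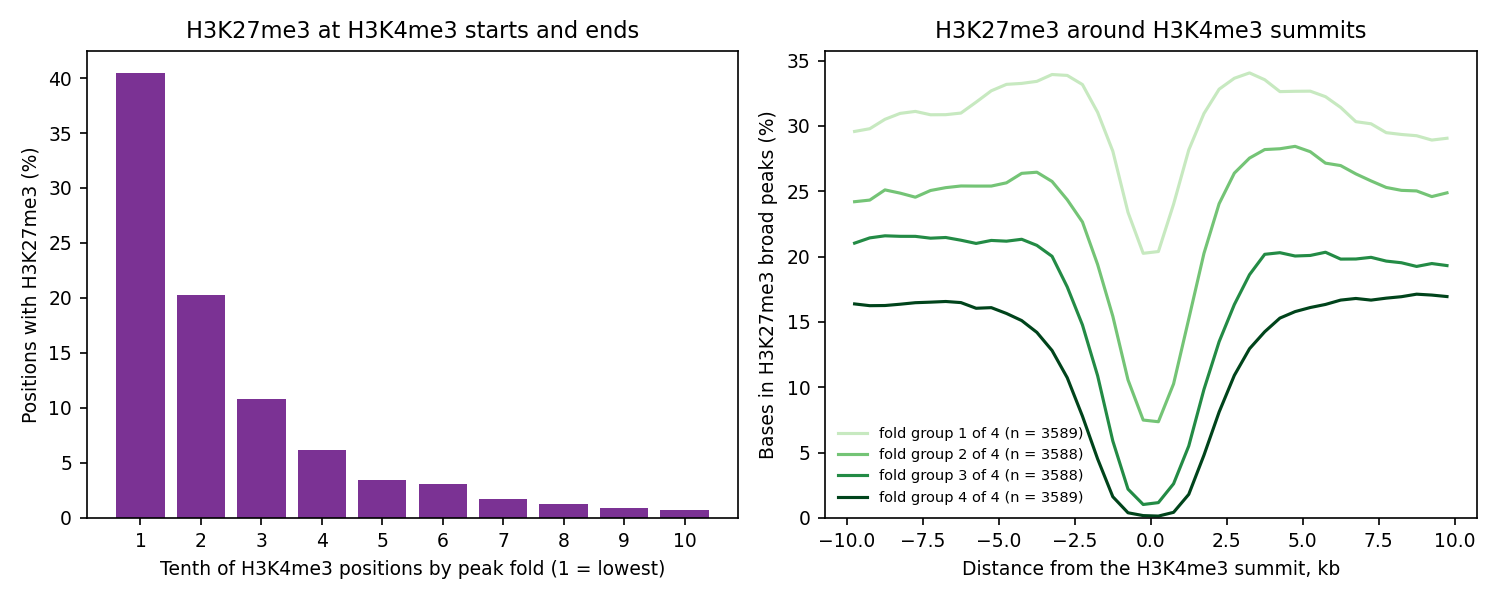
Left, the share of positions with an H3K4me3 peak that also had an H3K27me3 call (y axis, percent) in 10 groups of rising H3K4me3 fold (x axis), which falls from 40.5% to 0.717%. Right, the share of bases in broad H3K27me3 peaks (y axis, percent) by distance from the H3K4me3 summit (x axis, kb) for 4 groups of rising fold, with a trough at the summit in each group that reaches 0.153% in the highest.

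H3K4me3 peaks mostly lay outside H3K27me3 peaks. The broad H3K27me3 peaks covered 455 Mb, and the overlap expected from that coverage alone was not computed. Of the 14354 peaks, 842 (5.87%) lay wholly inside a broad H3K27me3 peak and 832 (5.80%) overlapped one in part, with a median of 24.7% of their length covered. A further 469 (3.27%) had H3K27me3 within 2 kb on both sides without overlap, 3203 (22.3%) on 1 side, and 9008 (62.8%) had none within 2 kb. The peaks wholly inside had a median fold of 5.10 and those with none nearby 11.1. Bases covered by both marks came to 1.316 Mb, which is 5.39% of the bases in H3K4me3 peaks and 0.289% of those in H3K27me3 peaks. Toward rising coordinates, broad H3K27me3 peaks covered 7.26% of bases within 500 bp of all H3K4me3 summits and 22.5% at 9500 to 10000 bp.

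At starts with H3K4me3 alone, H3K27me3 lay upstream far more than downstream. Broad H3K27me3 peaks covered 26.5% of bases from 5 to 2 kb upstream of these 10568 starts and 4.75% from 2 to 5 kb downstream, inside the gene. The profile was even at starts with neither mark, at 8.37% and 8.61%, and nearly so at starts with both marks, at 77.5% and 74.5%. Among genes longer than 10 kb with no other annotated record within 10 kb upstream, 1762 had H3K4me3 alone, and the coverage at their starts was 44.5% upstream and 4.66% downstream. Upstream exceeded downstream under each alternative run, with differences from 2.02 to 39.8 percentage points.

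At the 928 starts with both marks, H3K27me3 covered most bases at the start and more on either side. Broad peaks covered 84.8% of bases from 2 to 1 kb upstream, 64.9% within 200 bp of the start and 80.7% from 1 to 2 kb downstream, and the narrow list gave 33.8%, 13.8% and 34.0%. At starts with H3K27me3 alone the broad peaks covered 84.1% within 200 bp. The dip depended on the rule that chose these starts: with at least 1000 bp of the window covered, the coverage within 200 bp exceeded that upstream by 0.376 percentage points, and with a window of 500 bp either side by 7.67. The H3K4me3 summit lay a median of 220.5 bp downstream of the start with both marks and 281 bp with H3K4me3 alone. At 621 positions with both marks and a narrow H3K27me3 peak, the summits of the marks were a median of 1570 bp apart, and 8 pairs lay within 200 bp.

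**Figure D3:**
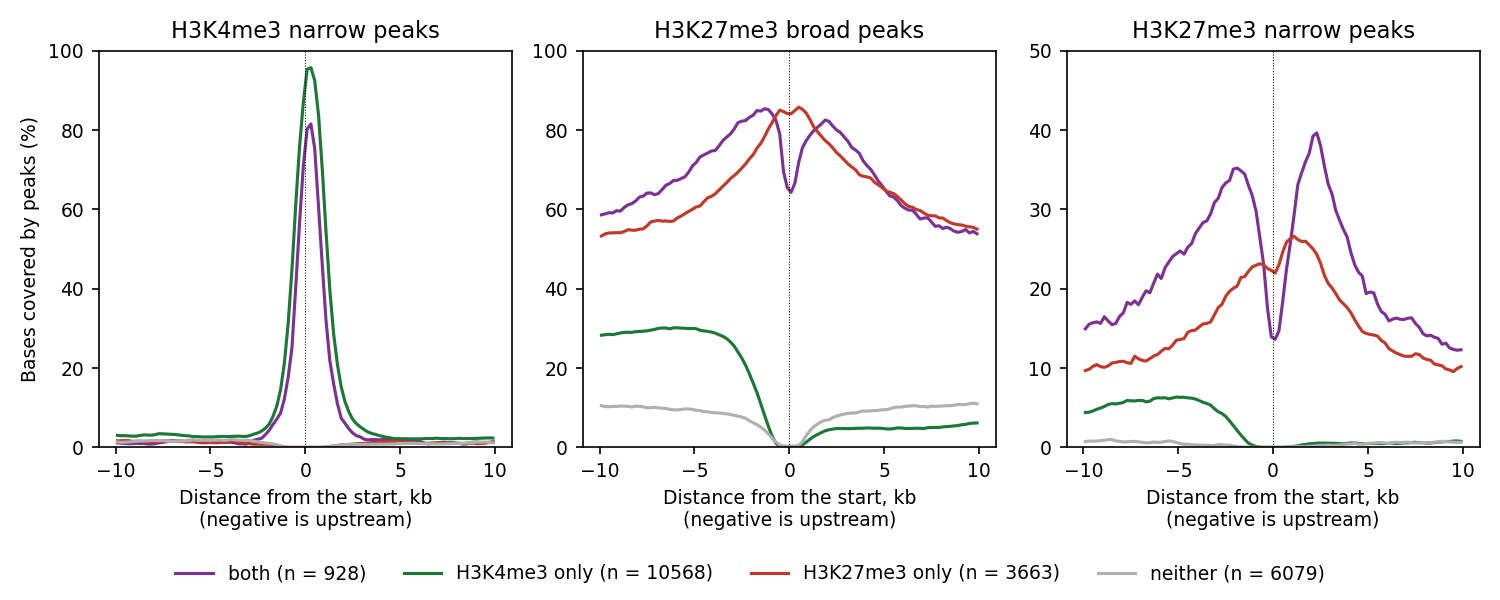
Share of bases covered by H3K4me3 narrow peaks, H3K27me3 broad peaks and H3K27me3 narrow peaks (y axes, percent; the right panel has its own scale) by distance from annotated starts (x axis, kb, negative upstream), for starts of each class. In the middle panel the green line, H3K4me3 alone, lies at 26.5% from 5 to 2 kb upstream and at 4.75% from 2 to 5 kb downstream, and the purple line, both marks, dips to 64.9% at the start.

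The genes that define satellite cells carried H3K4me3 without H3K27me3. Of 35 genes of satellite cell identity and quiescence, 32 had H3K4me3 alone (91.4%, against 48.2% of all genes). Of these 32, 30 had no H3K27me3 within 5 kb, against 5832 of all 10541 genes with H3K4me3 alone (55.3%). Their median H3K4me3 fold was 20.9 and their median domain 5161 bp, against 12.4 and 1863 bp over all genes with H3K4me3 alone. Pax7 had a fold of 26.4 and a domain of 17118 bp around its start on chromosome 4. The adhesion molecules Cdh15 and Vcam1 had folds of 24.1 and 14.8, the laminin receptor subunit Itga7 had 20.6, and the proteoglycan Sdc4 had 23.7 with a domain of 11900 bp. Myf5, which commits cells to muscle, had a fold of 19.1 and a CpG ratio of 0.163. Gas1 and Gpx3 had the highest folds of the list, both 31.5. Against the label of the cells, each of the 7 defining markers Pax7, Myf5, Cdh15, Calcr, Vcam1, Sdc4 and Itga7 had H3K4me3 alone.

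The other 3 genes of that list carried H3K27me3 as well. Pax3, the paralogue of Pax7 that acts in embryonic muscle progenitors, lay in an H3K27me3 domain of 181513 bp (chromosome 1, 78058273 to 78239785), formed by joining broad peaks up to 3 kb apart. It held 6 H3K4me3 peaks, more than any other H3K27me3 domain in QSC, with folds from 3.63 to 8.71. Each of the 6 lay wholly within H3K27me3, and the strongest covered the end of the Pax3 record at 78197136. Sdc3, another syndecan of satellite cells, had an H3K4me3 fold of 9.32 with 1191 bp of the window in H3K27me3 of fold 2.18, not in the narrow list. Tenm4, a transmembrane teneurin, had the marks at separate starts.

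At Tenm4 the start with H3K4me3 (fold 18.9) lay 40427 bp downstream of a start with 1024 bp of H3K27me3 (fold 1.86). The 250 bases before each start are shown for comparison of their CpGs, again in capitals: 8 at chr7:96211421-96211670 with H3K4me3 and 4 at chr7:96170994-96171243 with H3K27me3, both on the plus strand of GRCm38.p6.
Tenm4 start with H3K4me3: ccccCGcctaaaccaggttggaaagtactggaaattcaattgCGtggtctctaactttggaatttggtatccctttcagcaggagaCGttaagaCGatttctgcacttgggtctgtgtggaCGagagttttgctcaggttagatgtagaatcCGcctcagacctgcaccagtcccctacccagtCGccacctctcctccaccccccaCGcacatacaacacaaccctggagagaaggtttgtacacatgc
Tenm4 start with H3K27me3: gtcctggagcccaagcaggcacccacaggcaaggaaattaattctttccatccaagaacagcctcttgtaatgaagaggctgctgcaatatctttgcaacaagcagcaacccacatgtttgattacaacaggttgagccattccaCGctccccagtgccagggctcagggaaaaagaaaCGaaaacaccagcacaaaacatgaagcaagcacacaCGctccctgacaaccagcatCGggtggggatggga

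Tenm4 is 1 of 125 genes with the marks at different annotated starts, out of 2761 with more than 1 start in the table. The H3K27me3 peak had a q of at most 0.05 in 32 of the 125 (25.6%), and missed that limit at Tenm4 (−log10 q of 0.353). With the narrow H3K27me3 list 46 genes had the marks at different starts. The marked starts lay a median of 17001 bp apart, with the H3K4me3 start downstream in 77 genes and upstream in 48. The median CpG ratio was 0.745 at the start with H3K4me3 and 0.289 at the start with H3K27me3, and it was higher at the H3K4me3 start in 107 of the 125. Examples chosen after their values were seen include Foxp1, a forkhead repressor, with H3K4me3 of fold 21.5 at a start 254478 bp upstream of a start with H3K27me3 of fold 2.66. Gnas, which encodes the stimulatory G-protein subunit from an imprinted locus with several promoters, had H3K4me3 of fold 23.3 at a start 43429 bp downstream of a start with H3K27me3 of fold 2.33, whose −log10 q of 1.06 also missed the limit. In Septin9 the order of CpG ratios was the other way, 0.524 at the H3K4me3 start and 0.812 at the H3K27me3 start.

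Most myogenic regulators carried H3K4me3 alone. Of 36 genes, 23 had it alone (63.9%, against 48.2% of all genes) and 3 had both marks (8.33%, against 5.09%). H3K27me3 alone was found at 4 (11.1%, against 18.6%) and neither mark at 6 (16.7%, against 26.96%). Myod1, which acts early in activation, had H3K4me3 of fold 27.1, and the inhibitor of differentiation Id3 had 33.9, among the 10 highest of all genes with H3K4me3 alone. Myog, the regulator of terminal differentiation, and the fusion factors Mymk and Mymx had neither mark, as had the growth inhibitor Mstn. Cdon was read as unmarked at its listed start, while a peak of fold 19.1 lay elsewhere in its record. Both marks were found at Mef2c, Igf2 and Jam2, with H3K4me3 folds of 9.92, 5.89 and 5.46 and H3K27me3 folds from 1.98 to 3.33. Of these 3, 1 had a narrow H3K27me3 peak and 1 was called with a q of at most 0.05. Under the alternatives run, the number with both ranged from 1 to 7. Meox1, Meox2, Eya2 and Mef2b had H3K27me3 alone, 2 of the 4 with a narrow H3K27me3 peak and 1 called with a q of at most 0.05.

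Genes of the contractile apparatus mostly carried neither mark. Of 39, 21 had neither (53.8%, against 26.96% of all genes) and 9 had H3K4me3 alone (23.1%, against 48.2%). Another 9 had H3K27me3 alone (23.1%, near the 18.6% of all genes) and 0 had both (against 5.09%). The myosins Myh1, Myh2, Myh4, Myh7 and Myh8 and the giant proteins Ttn and Neb were unmarked. Desmin (Des), an intermediate filament already present in muscle precursors, had H3K4me3 of fold 24.7. H3K27me3 lay at Acta1, the skeletal actin, with fold 2.76 across the whole window, at Ckm, the muscle creatine kinase, with 2.81, and at the cardiac troponin Tnnt2 with 2.21. Of these 9 genes, 1 also had a narrow H3K27me3 peak, Acta1.

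Transcription factors of other lineages carried H3K27me3, often with H3K4me3. All 47 neural and regional factors had H3K27me3, against 24.9% of all genes. It was alone at 31 (66.0%, against 18.6%) and with H3K4me3 at 16 (34.0%, against 5.09%). All 31 of the former and 15 of the latter also had a narrow H3K27me3 peak. None had H3K4me3 alone. Olig2, Sox2, Pax6 and Neurod1 had H3K27me3 alone, with folds from 3.70 at Neurod1 to 4.31 at Olig2. Isl1, which marks motor neurons, had both, with an H3K4me3 fold of 4.84. En1 had the highest H3K4me3 fold of these 16, 14.3, and a domain of 6557 bp. Over the 16, the median H3K4me3 fold was 5.32 and the median H3K27me3 fold 3.51. Under the alternatives run, the number with H3K27me3 ranged from 37 to 47 and the number with both from 10 to 39.

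Of 61 factors of other mesodermal and endodermal fates, 24 had both marks (39.3%, against 5.09% of all genes). H3K27me3 alone was found at 31 (50.8%, against 18.6%), H3K4me3 alone at 5 (8.20%, against 48.2%) and neither at 1. Under the alternatives run, the number with both ranged from 12 to 40. Those with both included Twist1, with an H3K4me3 fold of 4.35 and H3K27me3 of fold 3.54 over the whole window, and Twist2, Msx1, Gata2, Gata3, Gata6, Foxc1, Foxc2 and 5 T-box genes. Pparg, the regulator of fat cells, and Sp7, that of bone cells, also had both. The cardiac factors Nkx2-5, Hand1, Hand2 and Gata4 and the gut factors Foxa1, Foxa2 and Cdx2 had H3K27me3 alone. The 5 with H3K4me3 alone were Runx1 (fold 25.9), Cebpa (17.7), Sox9 (16.9), Prrx1 (11.8) and Tbx4 (6.77).

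The Hox genes, which encode position along the body axis, differed by cluster. The HoxB cluster was covered by H3K27me3 along its whole span of 173939 bp and held 0 H3K4me3 peaks, and its 10 genes had H3K27me3 alone. The HoxD cluster was also covered whole, with H3K4me3 on 4.36% of its span, at Hoxd3, Hoxd8 and Hoxd9. In HoxC, H3K4me3 covered 46.8% and H3K27me3 22.6%: Hoxc4 to Hoxc11 had H3K4me3 alone, and Hoxc12 and Hoxc13 at the 5′ end of the cluster had H3K27me3 alone. HoxA was mixed, with H3K4me3 on 35.4% and H3K27me3 on 45.3%. Hoxa3, Hoxa4, Hoxa5, Hoxa6 and Hoxa9 had H3K4me3 alone, Hoxa2 had H3K27me3 alone, and Hoxa7, Hoxa10, Hoxa11 and Hoxa13 had both. Of all genes with both marks, Hoxa10 had the longest H3K4me3 domain, 20338 bp, at the boundary with an H3K27me3 domain of 112786 bp that ran over Hoxa11 and Hoxa13. At Hoxa7 the H3K27me3 was a single peak of 707 bp and fold 1.73, beside H3K4me3 of fold 15.0. Its −log10 q of 0.195 missed the limit of 1.3, and the window held 0 bp of the narrow H3K27me3 list.

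**Figure D4:**
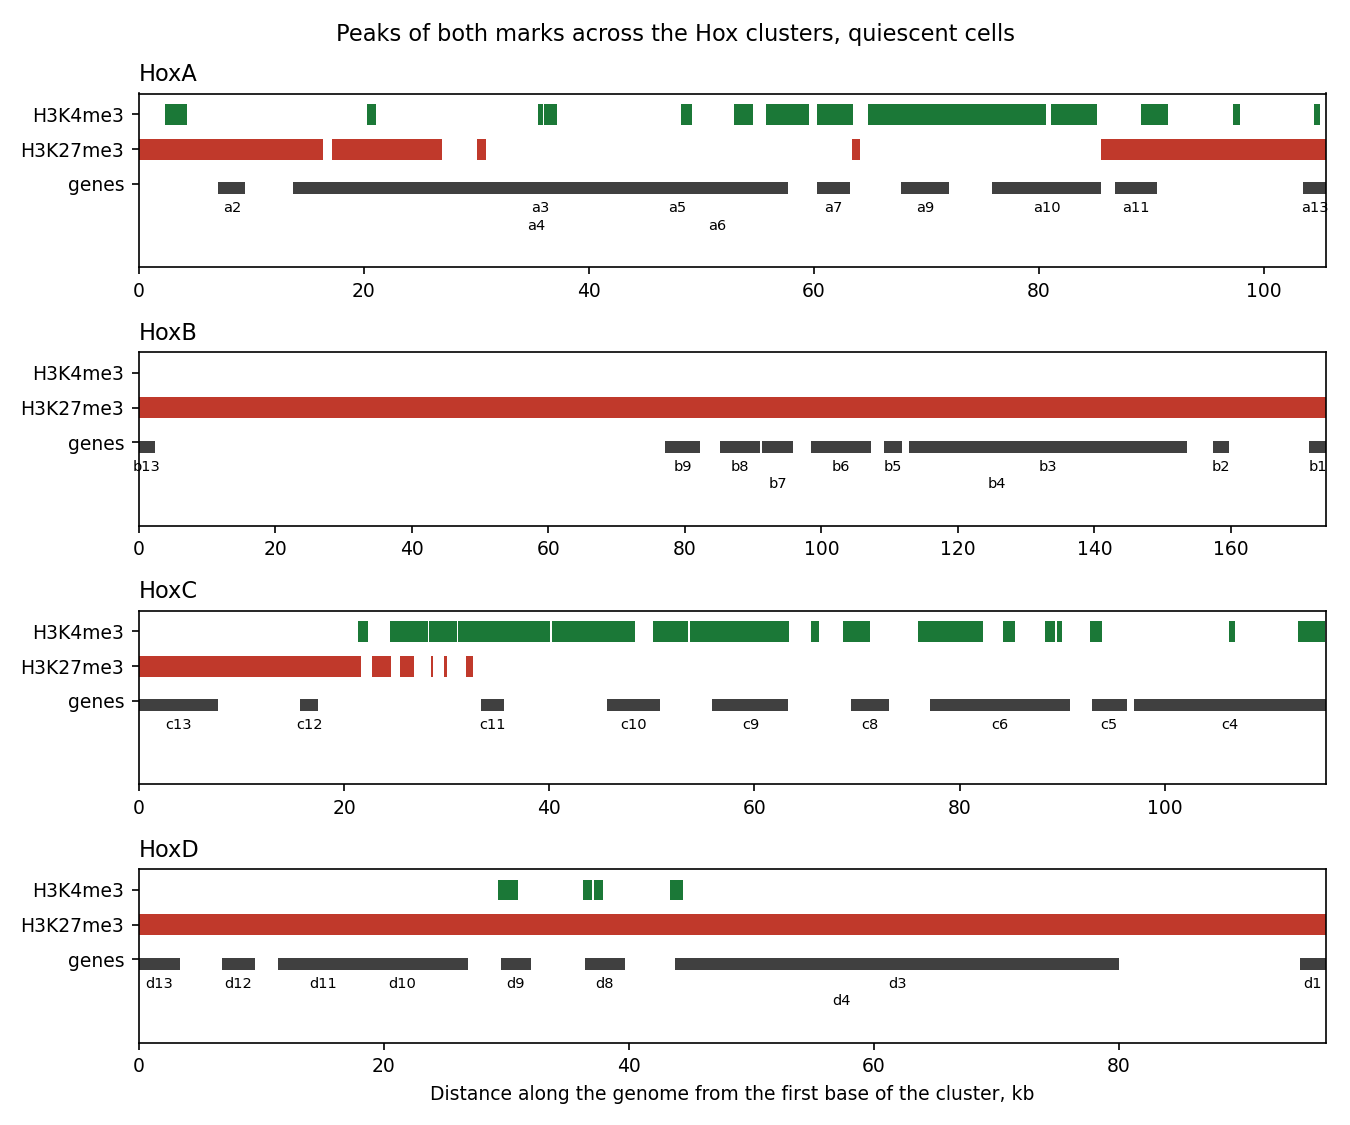
Peaks of H3K4me3 (green) and broad peaks of H3K27me3 (red) along the Hox clusters, with the records of the genes described in grey (x axis, distance in kb from the first base of the cluster). HoxB and HoxD are red along their whole length, HoxD with 4.36% green, whereas HoxC is 46.8% green with red at the Hoxc12 and Hoxc13 end.

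Among 42 Wnt genes, 17 had H3K27me3 alone (40.5%, against 18.6% of all genes) and 13 both (31.0%, against 5.09%). A further 11 had H3K4me3 alone (26.2%, against 48.2%) and 1 had the marks at separate places. A narrow H3K27me3 peak was found at 7 of the 13 with both and at 15 of the 17 with H3K27me3 alone. Under the alternatives run, the number with both ranged from 2 to 24 and the number with H3K27me3 from 13 to 36. The ligands Wnt1, Wnt3a and Wnt10b had H3K27me3 alone and Wnt5a, Wnt7a and Wnt11 had both, while H3K4me3 alone was found at Wnt4 and Wnt9a. The receptors Fzd1, Fzd4, Fzd7 and Fzd8 had H3K4me3 alone with folds from 16.5 to 18.4, as had Axin2, a feedback inhibitor (18.1). Among 46 ligands of the FGF, hedgehog, BMP and TGF-beta families and their antagonists, 20 had H3K27me3 alone (43.5%, against 18.6%). H3K4me3 alone was found at 13 (28.3%, against 48.2%) and both marks at 8 (17.4%, against 5.09%). A narrow H3K27me3 peak was found at 5 of these 8 and at 16 of the 20 with H3K27me3 alone. Under the alternatives run, the number with both ranged from 2 to 17 and the number with H3K27me3 from 10 to 35. Shh, Ihh and Dhh, the 3 hedgehog ligands, had H3K27me3 alone. Bmp4, Bmp6 and Tgfb1 to Tgfb3 had H3K4me3 alone, Bmp6 with the highest fold, 26.9. The antagonists Fst and Nog had both marks. Of 29 Notch pathway genes, 22 had H3K4me3 alone (75.9%, against 48.2%). Among them were the receptors Notch1 (fold 22.0), Notch2 (18.4) and Notch3 (20.9), the ligand Dll1 (24.0) and the target Hes1 (25.9). Notch4, a receptor of endothelium, had H3K27me3 alone, and the ligand Dll4 and the target Hes5 had both.

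Cell cycle genes carried H3K4me3 with few H3K27me3 calls. Of 46, 38 had H3K4me3 alone (82.6%, against 48.2% of all genes) with a median fold of 11.008. Both marks were found at Cdk6 and Rrm2, 2 of 46 (4.35%, near the 5.09% of all genes). Of these 2, 0 had a narrow H3K27me3 peak and 1 was called with a q of at most 0.05. Under the alternatives run, the number with both ranged from 0 to 6. H3K27me3 alone was found at 1 (2.17%, against 18.6%) and neither mark at 5 (10.9%, against 26.96%). The cyclins Ccnd1 and Ccnd3 had folds of 18.6 and 21.7, and the replication factor Pcna 11.1. Ccnd2 was read at the ends of its record, where H3K27me3 covered the whole window, and a peak of H3K4me3 of fold 4.35 lay inside the record. The 5 with neither were Ccnb2, Cdc20, Cdc25c, Tk1 and Bub1. Among 7 cyclin-dependent kinase inhibitors, Cdkn1a, Cdkn1b, Cdkn2b, Cdkn2c and Cdkn2d had H3K4me3 alone, with folds of 23.7, 19.5, 7.74, 23.0 and 10.4. Cdkn1c, an imprinted gene, and Cdkn2a had both (2 of 7, 28.6%, against 5.09% of all genes). Their H3K4me3 folds were 7.98 and 16.0 and their H3K27me3 folds 2.38 and 3.93. Of these 2, 0 had a narrow H3K27me3 peak and 1 was called with a q of at most 0.05. Under the alternatives run, the number of inhibitors with both ranged from 0 to 3.

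Immediate early genes, which respond within minutes to stimuli, had H3K4me3 alone in 28 of 34 (82.4%, against 48.2% of all genes). The median fold of these 28 was 23.9. Junb, a subunit of the AP-1 factor, had the highest fold of all genes with H3K4me3 alone, 37.3, and Zfp36, which destabilises messenger RNA, had 34.8. Jun had 31.7, Egr1 31.9 and Fos 26.4. Both marks were found at 4 (11.8%, against 5.09% of all genes), Fosl1, Egr2, Egr3 and Dusp2, and Egr4 had H3K27me3 alone. Of the 4, 2 had a narrow H3K27me3 peak. Under the alternatives run, the number with both ranged from 1 to 8. Others among the 10 highest were Zfp36l2, Phf23, Pim1, Trib1, Irs2, Mafk and Mknk2.

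The enzymes that write, read and erase the marks carried H3K4me3 alone at 38 of 43 genes (88.4%, against 48.2% of all genes). Ezh1 and Ezh2 had folds of 14.0 and 16.2, and the H3K27me3 demethylase Kdm6b had 17.8 with a domain of 14580 bp. Both marks were found at 4 of 43 (9.30%, against 5.09% of all genes). Among them were Cbx2, Cbx8 and Pcgf1, which encode subunits of Polycomb repressive complex 1. At Cbx2, Cbx8 and Pcgf1 the H3K4me3 folds ran from 8.95 to 14.0. H3K27me3 covered between 508 bp (Cbx8) and 867 bp (Pcgf1) of their windows, close to the minimum of 500 bp. All 4 genes with both marks were called with a q of at most 0.05, and 2 had a narrow H3K27me3 peak. Their H3K27me3 folds ran from 2.80 to 4.33. Ash2l was read at the ends of its record and called H3K27me3 alone. Of 20 ubiquitously expressed genes, 19 had H3K4me3 alone (95%, against 48.2% of all genes). Ywhaz had a peak of fold 26.4 inside its record but none at its ends.

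Genes of the extracellular matrix had H3K4me3 alone in 28 of 48 (58.3%, against 48.2% of all genes). The folds were 22.8 at the basement membrane collagens Col4a1 and Col4a2 and 23.3 at the laminin Lamc1. Markers of other cell types of muscle differed by cell type in how many carried H3K4me3, which was called at 54.4% of all genes: 1 of 21 immune, 4 of 17 endothelial, 6 of 18 fibro-adipogenic and fibroblast, 9 of 13 pericyte and smooth muscle and 6 of 13 Schwann cell and glial markers. Of the 21 immune markers, 15 had H3K27me3 alone (71.4%, against 18.6% of all genes), 5 neither, 1 both (Cd4) and 0 H3K4me3 alone. Of the 15, 4 had a narrow H3K27me3 peak and 6 were called with a q of at most 0.05. Under the alternatives run, the number of immune markers with H3K27me3 ranged from 4 to 18. Cd3e had an H3K27me3 fold of 3.20, and Ptprc had neither mark. Of the 17 endothelial markers, 11 had H3K27me3 alone (64.7%, against 18.6% of all genes), including Pecam1 and Cdh5. Of the 11, 4 had a narrow H3K27me3 peak and 3 were called with a q of at most 0.05. The other endothelial markers were 2 with both (Kdr and Flt1), 2 with neither and 2 with H3K4me3 alone (Tek, fold 7.98, and Egfl7, 5.29). Under the alternatives run, the number of endothelial markers with H3K27me3 ranged from 3 to 14. Of the 18 fibro-adipogenic and fibroblast markers, 8 had neither mark (44.4%, against 26.96% of all genes) and 5 H3K4me3 alone (27.8%, against 48.2%). H3K27me3 alone was found at 4 (22.2%, against 18.6% of all genes) and the marks at separate places at 1. Dpt had H3K4me3 of fold 20.1, and Pdgfra had H3K27me3 alone with the highest fold of the 4, 3.47. Of the 13 pericyte and smooth muscle markers, 8 had H3K4me3 alone (61.5%, against 48.2% of all genes), with a median fold of 8.31. Of these 8, 2 (Des and Notch3) stand in other lists here. Of the 13 Schwann cell and glial markers, 3 had H3K4me3 alone (23.1%, against 48.2% of all genes) and 2 both (15.4%, against 5.09%). H3K27me3 alone was found at 5 (38.5%, against 18.6%), the marks at separate places at 1 and neither at 2. Of the 2 with both, 0 had a narrow H3K27me3 peak and 0 were called with a q of at most 0.05.

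**Figure D5:**
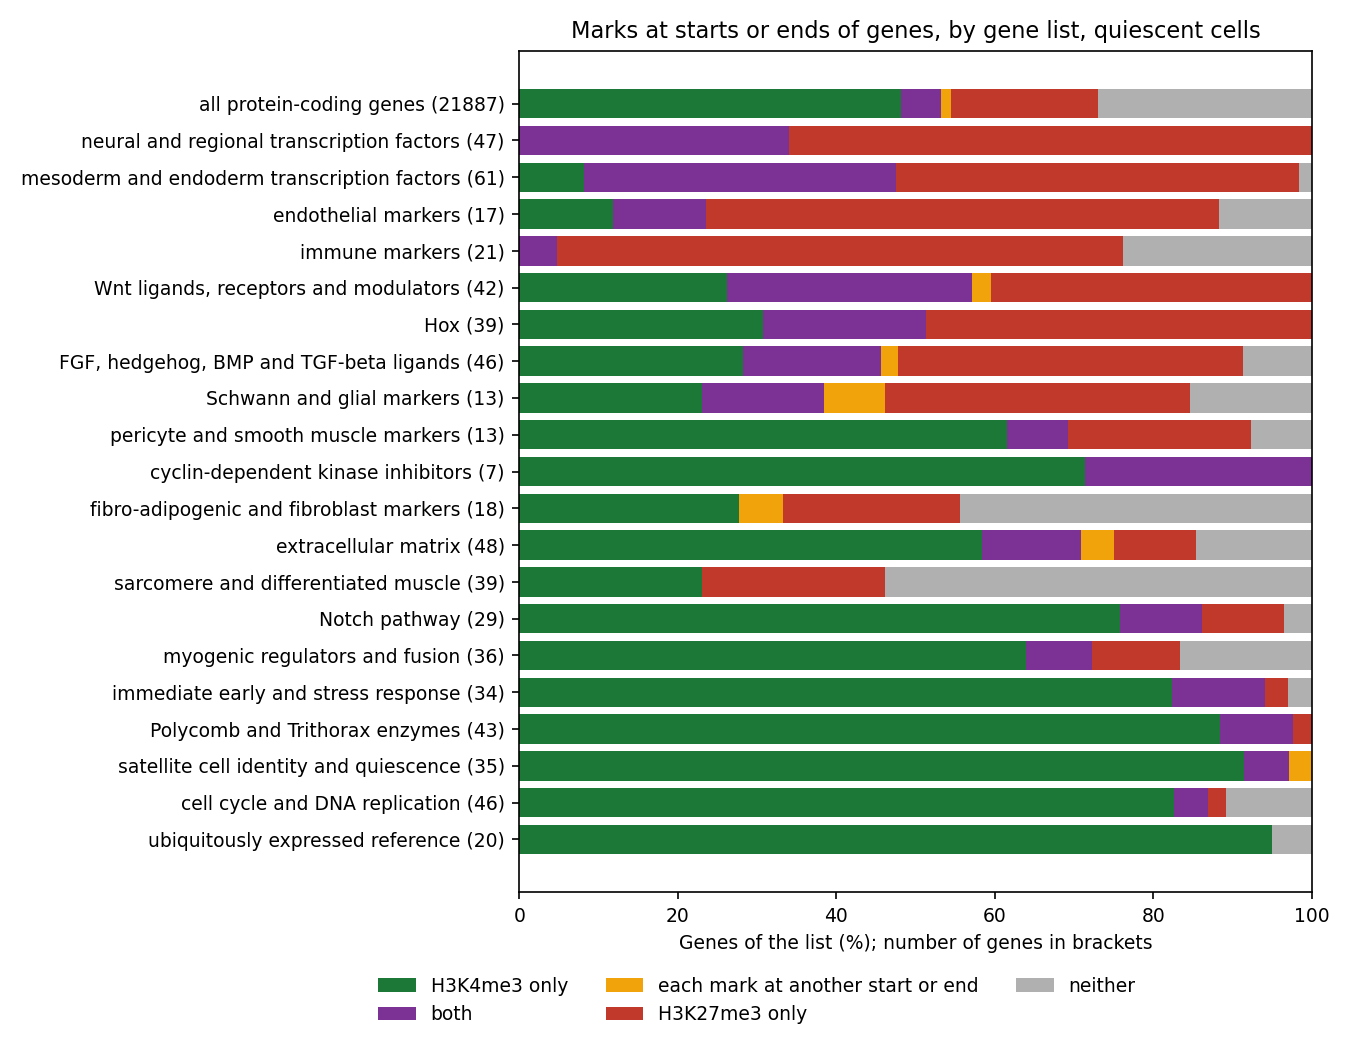
Each bar is a gene list (number of genes in brackets) divided by class (x axis, percent), with all protein-coding genes at the top for comparison and the lists ordered by the share with H3K27me3. The neural bar has no green, the bars of satellite cell, cell cycle and ubiquitously expressed genes are mostly green, and the contractile list has the most grey.

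The 10 longest H3K27me3 domains held from 0 to 2 H3K4me3 peaks each. The longest, 540750 bp on chromosome 10 (120235235 to 120775984), held Hmga2, a fetal chromatin protein, and 2 H3K4me3 peaks. Hmga2 itself had both marks, with H3K4me3 of fold 6.05 at its start. Sulf2, which edits heparan sulfate, lay in a domain of 458944 bp with 0 H3K4me3 peaks. Domains of 479561 bp and 474743 bp held Cadm1 and Peli2, each with both marks, and that of 522696 bp held Cbln1 and part of Zfp423. H3K4me3 was present in 0.292% of domains under 5 kb and in 34.6% of those of 100 kb and over, while the number of H3K4me3 peaks per 100 kb of domain was 0.179 in the shortest group, 0.339 from 5 to 20 kb, 0.452 from 20 to 50 kb, 0.402 from 50 to 100 kb and 0.310 in the longest. This density was highest at 20 to 50 kb and lower in shorter and in longer domains. No density over the whole genome is given for comparison.

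Over all 21887 protein-coding genes, 2168 had both marks in ASC, against 1114 in QSC. Of the 1114 genes with both marks in QSC, 950 (85.3%) had both in ASC by the same rule, 94 had H3K4me3 alone and 62 H3K27me3 alone. The 94 had a higher median H3K4me3 fold in QSC, 8.83, and less H3K27me3 within 5 kb, a median of 5098.5 bp, than the 950, with 6.29 and 8635 bp. A narrow H3K27me3 peak in QSC was found at 12 of the 94 (12.8%) and at 504 of the 950 (53.1%). The 62 had a median H3K4me3 fold of 3.93. Of the genes with H3K4me3 alone in QSC, 680 (6.45%) had both in ASC, and of those with H3K27me3 alone, 417 (10.2%). The lists of the states differ in size and were called apart, so these counts compare lists and carry no test.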

How the data were processed

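Per the labels' protocols, sonicated chromatin was immunoprecipitated and tagmented on the antibody (ChIPmentation), and sequencing used a NextSeq 500 with 75 bp paired reads. The submitters' processing notes name MACS2 2.1.1, Bowtie2 2.3.2, bedtools 2.26.0, Picard 2.9.2, SAMtools 1.3, Trimmomatic 0.36, bcl2fastq 2.19 and the build mm10, without roles or settings. Both replicates of a group point to 1 set of lists, which was treated as pooled. Each deposited peak has a fold over background (a linear ratio), the −log10 of its q-value and, in narrow lists, a summit offset, all made by the authors; folds were compared within a list.

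Starts came from the RefSeq promoter table (GRCm38.p6, the coordinates of mm10), with 21263 starts for 17492 genes matched by gene identifier. The other genes were read at both ends of their record, which can miss a start inside it and also counts a mark at the 3′ end. Genes read in this way had both marks in 6.78%, against 4.66% of genes with an annotated start. H3K27me3 alone was found at 24.1% against 17.2%, and the marks at different places at 3.09% against 0.715%. H3K4me3 domains joined narrow peaks over gaps of 1 kb, and H3K27me3 domains broad peaks over 3 kb. The 20 gene lists (654 symbols, all matched) and the other members were chosen with earlier results of these data known. Named genes are list members, the 10 genes with the highest H3K4me3 fold alone, the most H3K27me3 within 5 kb or the longest H3K4me3 domain, and genes of the 10 longest H3K27me3 domains. Examples from lists were picked after their values were seen. Some genes are not reported here. Calling was tested on simulated peaks. Python 3.11.15, numpy 2.4.6 and pandas 2.3.3 were used.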

Additional observations from a re-analysis of the deposited data

How the results depend on the processing

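No paired analysis was possible because each list is shared by both replicates, and for the same reason no replicate could be left out. Values in the text change most with how H3K27me3 is called. In the order both marks, H3K27me3 alone, percent of H3K4me3 genes with H3K27me3 and percent of H3K27me3 genes with H3K4me3, the text has 1114, 4071, 9.35% and 20.5%; the narrow list gave 594, 1633, 4.98% and 25.7%, a broad call with a narrow peak 558, 1628, 4.68% and 24.5%, a q of at most 0.05 gave 571, 1402, 4.79% and 27.9%, and a fold of at least 3 gave 220, 588, 1.85% and 26.3%, with 9383 genes without a mark. The broad H3K4me3 list gave 2617, 2561, 17.5% and 48.1%. Leaving out the count with H3K27me3 alone, a single covered base gave 1802, 15.1% and 27.2%, windows of 500 bp gave 662, 5.62% and 14.8%, and windows of 2500 bp gave 3624, 29.8% and 42.2%. The shares alone were 6.40% and 16.9% with 1000 bp covered, 7.27% and 15.1% with H3K4me3 peaks of fold 5 or more, 8.65% and 18.7% when their −log10 q was 5 or more, 10.1% and 17.5% with both ends of every record. With all annotated genes they were 10.0007% and 10.5%, with 12074 genes of H3K27me3 alone and 23230 with neither mark. With genes of annotated start alone, chosen after seeing the data, the first share was 8.44%.

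H3K27me3 upstream minus downstream at starts with H3K4me3 alone was 21.8 points, and 4.41 with the narrow list, 7.48 with the q limit, 2.02 with the fold limit, 11.8 with 2500 bp windows and 39.8 at isolated genes, a setting chosen after seeing the data. Coverage at starts with both marks minus that at 1 to 2 kb upstream was -19.9 points, and -32.4 with the narrow list, -9.72 with broad calls that have a narrow peak, -8.86 with the q limit, -13.1 with the fold limit, -40.9 with 1 covered base, -4.84 with the broad H3K4me3 list and -40.7 with 2500 bp windows. It reversed to 0.376 with 1000 bp covered and to 7.67 with 500 bp windows, which by construction keep starts that are covered themselves.

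H3K4me3 peaks overlapped, peaks flanked on both sides and bases in common were 11.7%, 3.27% and 1.316 Mb, and 3.797%, 1.46% and 0.301 Mb with the narrow H3K27me3 list, 5.85%, 0.153% and 0.767 Mb with the q limit, 24.7%, 1.92% and 44.7 Mb with the broad H3K4me3 list, and 13.7%, 1.296% and 2.098 Mb with gaps of 3 kb joined. An H3K4me3 fold of at least 5 gave 9.51% and 2.87%, and flanks of 1 kb and 5 kb gave 1.46% and 6.84% flanked. The 125 genes with the marks at different annotated starts became 46 with the narrow list, 35 with the q limit, 16 with the fold limit and 73 with 2500 bp windows, settings chosen after seeing the data. Counts within gene lists moved in 185 recomputations and kept within 1.5 times in 375. Depth per library is unknown, and no value has a replicate error.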

Other observations

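Large gene families differed by mark in QSC. Of 1110 olfactory receptor genes, 952 had neither mark (85.8%, against 26.96% of all genes) and 157 had H3K27me3 alone (14.1%, against 18.6%). Of 353 vomeronasal receptor genes, 322 had neither (91.2%). Of 53 keratin genes, 50 had H3K27me3 alone (94.3%, against 18.6% of all genes), 20 of them with a narrow peak, and 0 had an H3K4me3 call. Of 57 clustered protocadherin genes, which give neurons their surface identity, 50 were called H3K27me3 alone (87.7%, against 18.6% of all genes). All 57 were read at the ends of their records, and 31 without an H3K4me3 call had an H3K4me3 peak inside the record. Of the 50, 2 had a narrow H3K27me3 peak and 0 were called with a q of at most 0.05. Potassium channel genes had both marks in 20 of 92 (21.7%, against 5.09% of all genes) and H3K27me3 alone in 45 (48.9%, against 18.6%). All 78 mitochondrial ribosomal protein genes and all 37 complex I subunit genes had H3K4me3 alone, against 48.2% of all genes. Of 397 zinc finger genes with a Zfp symbol, 288 had H3K4me3 alone (72.5%, against 48.2% of all genes). Both marks were found at 17 (4.28%, near the 5.09% of all genes) and the marks at separate places at 15 (3.78%, against 1.19%). Family members are paralogues, and peaks over near-identical copies are uncertain.

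Both marks were called at a smaller share of genes on the sex chromosomes than on autosomes. On the X chromosome, 345 of 966 genes (35.7%) had H3K4me3 alone, 45 (4.66%) H3K27me3 alone, 7 both marks and 568 (58.8%) neither, against 10192 (49.3%), 4026 (19.5%), 1107 and 5080 (24.6%) of 20665 autosomal genes. On the Y chromosome, 4 of 256 genes had H3K4me3 and 0 had H3K27me3. The sources used here do not give the sex of the mice.

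Genes that share a promoter window with another protein-coding gene were 19.8% of those with H3K4me3 alone, 4.85% of those with both marks, 2.68% of those with H3K27me3 alone and 2.37% of those with neither.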
